A study of Rattus norvegicus with 15 samples.

Results

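The genes described here sense oxygen or answer to the hypoxia-inducible factors (HIFs). They are the HIF hydroxylase genes Egln3 and Egln1, the HIF alpha subunit genes Hif1a and Epas1, and the HIF-regulated genes Vegfa, Pdk1, Bnip3 and Ankrd37. Members were taken as the probe sets that the platform annotation assigns to these symbols. All 8 genes had one, among 14506 genes with a single gene name on the array, and where a gene had several probe sets the one with the highest mean was used. Transcript levels came from 15 Affymetrix rat gene arrays, 1 for each microfluidic biochip, a small perfused culture chamber, of primary hepatocytes newly isolated from rats. The cells adhered for 24 h, and medium was then pumped at 25 µl/min for a 24 h exposure in an incubator held at 32 °C. The groups were DMSO solvent (5 arrays), 10 µM flutamide (6 arrays) and 100 µM flutamide (4 arrays). Flutamide is a nonsteroidal antiandrogen that can injure the liver. The labels give no strain, age or sex of the rats and no oxygen level. They do not say whether biochips held cells of separate animals, so the p-values refer to the spread among these arrays alone, and that spread may be technical.

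The titles number the biochips 20 to 27 and 10 to 16, called number run 2 and number run 1 here. Run 2 held 3 DMSO, 3 10 µM and 2 100 µM arrays, and run 1 held 2, 3 and 2. The labels do not say what the numbers stand for. Values are log2 expression as deposited. The hepatocyte markers averaged 9.89 to 10.51 over 10 genes in each array, with Alb, which encodes albumin, at a mean of 12.91. Of the other cell types, the macrophage markers (9 of 10 measured) averaged 5.73 to 6.82 in DMSO, 5.55 to 7.42 at 10 µM and 5.59 to 6.29 at 100 µM, with Cd68, a macrophage lysosomal protein gene, at a mean of 9.28. Endothelial markers (6 of 10 measured) averaged 4.33 to 4.95 over all arrays. The 10 µM array 23 was the least like the others: its correlations with them had a median of 0.967, against 0.971 to 0.987 for the rest, and limma gave it a quality weight of 0.205. The next lowest weights were 0.427 for 100 µM array 15 and 0.549 for 10 µM array 24. In bulk samples, fewer cells of a type and less RNA per cell cannot be told apart.

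HIFs are transcription factors made of an oxygen-regulated alpha subunit, HIF-1alpha (Hif1a) or HIF-2alpha (Epas1), and a stable partner, ARNT. With oxygen present, the prolyl hydroxylases PHD2 (Egln1) and PHD3 (Egln3) mark the alpha subunit, the VHL protein binds it and the proteasome destroys it. In low oxygen the alpha subunit persists and raises genes for vessel growth, anaerobic glucose use and mitophagy, as well as the hydroxylases themselves, which closes a feedback loop. HIF activity is set largely at the protein level, which arrays do not measure. In the liver, oxygen falls from the periportal to the perivenous zone, and hepatocytes consume much of it in culture.

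Egln3 and Epas1 differed between the number runs, in opposite directions, and no member passed the test for either flutamide dose. Egln3 was 1.70-fold higher in run 2 and Epas1 was 1.54-fold lower in run 2. Egln3 also had the largest differences from DMSO among the members, 1.45-fold lower at 10 µM and 1.58-fold lower at 100 µM than DMSO, but these differences did not pass over all genes. Hif1a had the narrowest range of the 8 genes, 0.49 on the log2 scale over the 15 arrays, and Egln3 the widest, 1.88.

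**Figure D1:**
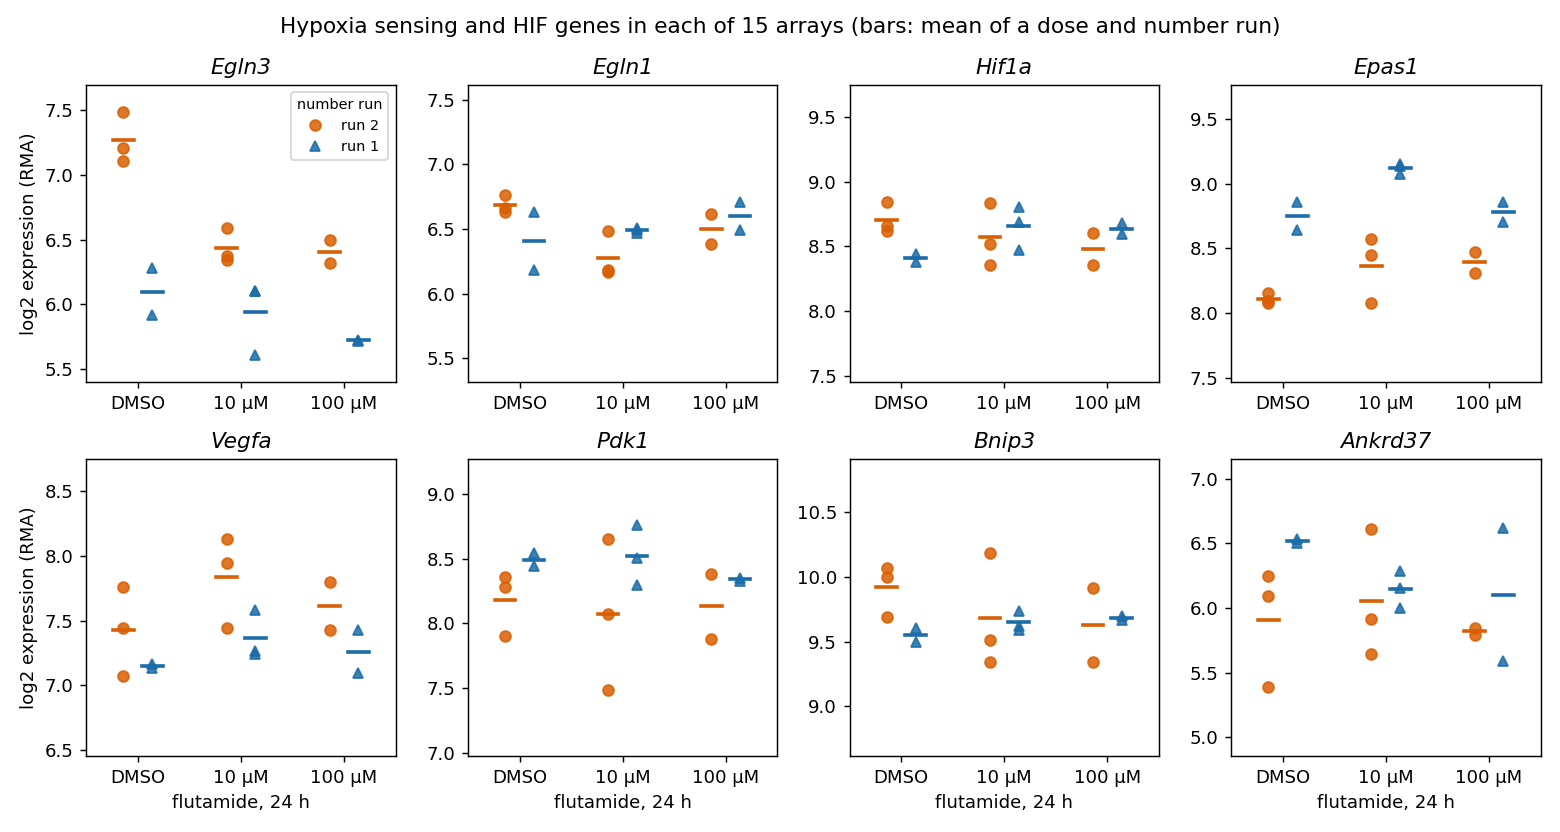
Log2 expression (RMA, y axis) of each of the 8 genes in each of the 15 arrays by flutamide dose (x axis). Orange circles are number run 2, blue triangles number run 1, horizontal bars the mean of a dose within a run, and every panel spans the same number of log2 units. Egln3 lies higher and Epas1 lower in run 2 at each dose.

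The first comparison asks how the members differed between the number runs, with dose held in the model. Egln3 lay between 6.32 and 7.49 in run 2 (median 6.54, 8 arrays), and between 5.60 and 6.28 in run 1 (median 5.92, 7 arrays). All run 2 arrays were above all run 1 arrays. The difference was 0.77 (SE 0.12, 95% interval 0.51 to 1.03), with an adjusted p of 0.0121 by limma. Egln3 encodes the hydroxylase whose transcript is known as one of the more strongly HIF-responsive of its family. Within dose groups its run 2 minus run 1 difference was 1.17 in DMSO, 0.50 at 10 µM and 0.69 at 100 µM, and the runs did not overlap at any dose. With so few arrays a dose that alone is common: the runs did not overlap for 30.4% of all genes in DMSO, 16.6% at 10 µM and 32.2% at 100 µM.

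Epas1 lay between 8.07 and 8.57 in run 2 (median 8.23), and between 8.64 and 9.16 in run 1 (median 8.86). Every run 2 array was below every run 1 array. The difference was -0.62 (SE 0.08, 95% interval -0.80 to -0.44), with an adjusted p of 0.00566 by limma. By dose it was -0.64 in DMSO, -0.76 at 10 µM and -0.39 at 100 µM, without overlap, to be read against the same shares of all genes. Epas1 is abundant in endothelial cells as well as in hepatocytes. The endothelial markers had a median of 4.74 in run 2 and 4.42 in run 1, and all 6 measured were higher in run 2, where Epas1 was lower. They were dim: Kdr (4.34), Emcn (4.26) and Tek (3.86) averaged among the lowest 25% of genes (under 4.53). Pecam1, Lyve1 and Cdh5 averaged 4.95 to 5.01. Red blood cell markers (2 of 4 measured) had medians of 5.87 in run 2 and 5.23 in run 1, with Hbb, a globin gene, at 1.17 (adjusted p = 0.0700). Macrophage markers had medians of 5.87 in run 2 and 6.05 in run 1. Cd68 was at -1.42 (adjusted p = 0.0708), while 7 of the 9 measured were higher in run 2. None of these markers passed, and their part in the Egln3 and Epas1 differences was not tested.

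Over all genes, 79 of 14506 (0.545%) passed between the runs, 33 higher (0.227%) and 46 lower (0.317%) in run 2, and 2 of the 8 members were among them. The members were chosen with earlier results of these data known, so this count is no test of them as a set. Groups did not overlap for 0.614% of all genes. Leaving out arrays 23, 15 and 24, the 3 of lowest weight, Egln3 differed by 0.83 (adjusted p = 0.0324) and Epas1 by -0.57 (adjusted p = 0.00363). Without 10 µM array 23 alone, the values were 0.76 (adjusted p = 0.0167) and -0.62 (adjusted p = 0.0049). What sets the number runs apart is not given by the labels, and its part in these differences was not tested.

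The other 6 members did not pass between the runs. Vegfa, the main vessel growth factor, was at 0.38 (SE 0.12, adjusted p = 0.247), with 7.07 to 8.13 in run 2 and 7.09 to 7.59 in run 1. Pdk1, a kinase that inhibits pyruvate dehydrogenase, was at -0.34 (SE 0.15, adjusted p = 0.422), with 7.48 to 8.65 in run 2 and 8.30 to 8.76 in run 1. Both overlapped between runs with all doses together. Ankrd37, an ankyrin repeat gene known as a HIF-1 target, was at -0.31 (SE 0.18, adjusted p = 0.582). Bnip3, a mitophagy receptor, was at 0.12 (95% interval -0.16 to 0.40). Hif1a was at 0.02 (95% interval -0.18 to 0.22) and Egln1, the main oxygen-sensing hydroxylase, at -0.02 (95% interval -0.23 to 0.18). The fit takes the run difference as equal at each dose. In it, the intervals of Hif1a and Egln1 do not reach beyond 0.23 in either direction. By dose, Hif1a was at 0.30 in DMSO, -0.08 at 10 µM and -0.16 at 100 µM. Egln1 was at 0.28, -0.21 and -0.10 in the same order. Within DMSO the runs did not overlap for Hif1a, Egln1, Pdk1 (-0.31), Bnip3 (0.37) and Ankrd37 (-0.61), as for 30.4% of all genes. For Egln1 the gap was slight, from 6.6326 in run 1 array 10 to 6.6340 in run 2 array 21, while DMSO array 11 was at 6.18. Vegfa overlapped between runs within DMSO (0.27), and all 6 overlapped within each flutamide dose.

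**Figure D2:**
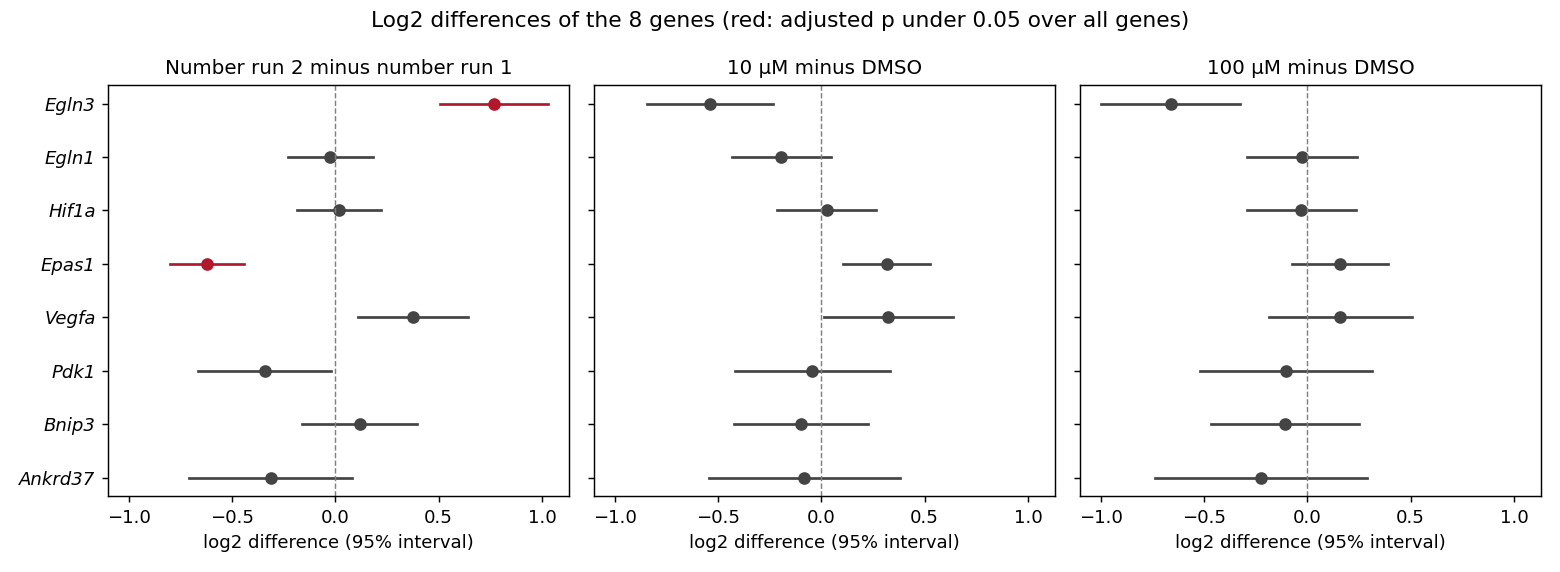
Log2 difference (point) with its 95% interval (line) of each gene from the limma fit, for run 2 minus run 1 and for each flutamide dose minus DMSO. Egln3 and Epas1 in the run panel, drawn in red, are the only points past an adjusted p of 0.05.

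The region just upstream of the transcription start is shown for the 2 genes that differed between the runs and for 3 HIF-regulated members, because it shows where the letters that HIFs are known to bind occur. All 8 genes matched the RefSeq promoter table of assembly GRCr8. The core of the hypoxia response element was searched as ACGTG or GCGTG on both strands, in the 250 bases before the start, and matches are in capitals. On the printed strand a match to the other strand reads CACGT or CACGC, and ACGTG and CACGT overlap where the letters read CACGTG. Each window is printed 5′ to 3′ on the strand of its gene.
Egln3, chr6:77411016-77411265, minus strand: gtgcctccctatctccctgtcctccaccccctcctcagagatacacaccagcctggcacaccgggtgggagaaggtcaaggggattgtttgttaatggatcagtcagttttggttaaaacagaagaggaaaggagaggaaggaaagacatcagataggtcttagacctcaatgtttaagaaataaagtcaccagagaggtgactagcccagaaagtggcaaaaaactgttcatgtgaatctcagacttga
Epas1, chr6:13624730-13624979, minus strand: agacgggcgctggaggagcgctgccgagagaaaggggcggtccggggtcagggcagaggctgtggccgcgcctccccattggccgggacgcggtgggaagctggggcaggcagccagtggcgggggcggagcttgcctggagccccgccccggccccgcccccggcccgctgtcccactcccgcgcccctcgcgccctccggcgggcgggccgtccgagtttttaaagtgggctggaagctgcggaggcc
Ankrd37, chr16:53001257-53001506, plus strand: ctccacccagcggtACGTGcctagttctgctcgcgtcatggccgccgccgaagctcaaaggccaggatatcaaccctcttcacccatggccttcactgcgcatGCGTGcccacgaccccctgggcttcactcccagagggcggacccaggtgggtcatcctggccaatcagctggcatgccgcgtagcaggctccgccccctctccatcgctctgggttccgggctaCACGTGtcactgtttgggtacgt
Bnip3, chr1:203154963-203155212, minus strand: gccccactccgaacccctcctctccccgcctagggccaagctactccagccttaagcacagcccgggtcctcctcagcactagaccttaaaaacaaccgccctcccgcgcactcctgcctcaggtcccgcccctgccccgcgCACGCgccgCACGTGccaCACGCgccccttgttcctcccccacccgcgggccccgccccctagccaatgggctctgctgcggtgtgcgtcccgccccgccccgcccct
Pdk1, chr3:77113264-77113513, plus strand: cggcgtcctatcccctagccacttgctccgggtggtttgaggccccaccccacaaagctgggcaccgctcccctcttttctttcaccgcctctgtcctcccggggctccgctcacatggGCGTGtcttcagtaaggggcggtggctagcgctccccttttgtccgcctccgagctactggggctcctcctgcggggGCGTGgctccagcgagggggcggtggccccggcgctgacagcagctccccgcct

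Bnip3 held 3 separate stretches with the core within its window, Ankrd37 3 and Pdk1 2. Hif1a and Egln1 also held it, so that 5 of 8 members did, against 36.7% of the 33469 entries of the table. The member share counts genes, while the table share counts listed starts, of which a gene can have several. The windows of Egln3, Epas1 and Vegfa (both of its listed starts) did not hold these letters. The core contains CG, and GC content was 46.8% for Egln3, 76.8% for Epas1, 64.4% for Ankrd37, 72.4% for Bnip3 and 69.2% for Pdk1. It was 85.2% for Egln1, 73.6% for Hif1a, and 60.4% and 56.0% for the Vegfa starts, with a median of 51.2% over the table. A match is a run of letters and not a measured binding site, and hypoxia response elements can lie outside this window.

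The second comparison asks what 10 µM flutamide did. No gene on the array passed (0 of 14506, 0%; 1109 at an unadjusted p under 0.05, 7.65%), so no member did. Egln3, the hydroxylase gene, had 6.34, 6.37 and 6.59 in the 10 µM arrays of run 2, against 7.11, 7.21 and 7.49 in the DMSO arrays of that run. In run 1 it had 5.60, 6.10 and 6.11 at 10 µM, against 5.92 and 6.28 in DMSO. The groups were fully separated in run 2, as for 16.3% of all genes, and overlapped in run 1. The difference was -0.54 over both runs (SE 0.14, 95% interval -0.84 to -0.23, adjusted p = 0.350 by limma), -0.83 within run 2 and -0.16 within run 1. The change in this difference between runs was -0.67 (SE 0.24, adjusted p = 0.390).

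Epas1, the HIF-2alpha gene, was at 0.32 at 10 µM (SE 0.10, 95% interval 0.11 to 0.53, adjusted p = 0.431). It had 8.07, 8.45 and 8.57 in the 10 µM arrays of run 2, against 8.08, 8.09 and 8.16 in DMSO. In run 1 it had 9.08, 9.14 and 9.16 at 10 µM, against 8.64 and 8.86 in DMSO. The groups were separated in run 1, where this held for 25.5% of all genes, while in run 2 array 24 lay level with DMSO. Epas1 was thus on opposite sides of 0 to Egln3 both for dose and for run.

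Vegfa was at 0.32 at 10 µM (SE 0.15, adjusted p = 0.639). Its values were 7.24, 7.51 and 8.13 (lowest, median, highest) at 10 µM, against 7.07, 7.17 and 7.76 in DMSO, so the groups overlapped. The highest of all arrays was 10 µM array 23, which also had the highest Bnip3 (10.19) and the lowest Pdk1 (7.48). Its marker means were the highest for macrophages (7.42), hepatocytes (10.51), endothelial cells (4.95), stellate cells (5.33) and lymphocytes (4.45). For cholangiocytes its mean was the lowest (4.91), and for red blood cells (6.15) it was not the highest. The part of these cell types in its member values was not tested. Without array 23 Vegfa was at 0.24 (adjusted p = 0.683). Leaving out arrays 23, 15 and 24 it was at 0.14 (adjusted p = 0.839). Vegfa is made by macrophages and other cell types as well as by hepatocytes.

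Among the rest, Egln1 was at -0.19 at 10 µM (95% interval -0.43 to 0.05), -0.41 within run 2 and 0.08 within run 1. In run 2 its 10 µM values of 6.17, 6.18 and 6.48 lay below the DMSO values of 6.63, 6.66 and 6.76. They did not overlap, as for 16.3% of all genes in that run. Its run 1 values overlapped, and the change between runs was -0.49 (SE 0.20, adjusted p = 0.438). Hif1a was at 0.03 (95% interval -0.21 to 0.26), Pdk1 at -0.04 (-0.42 to 0.33), Bnip3 at -0.10 (-0.42 to 0.23) and Ankrd37 at -0.08 (-0.54 to 0.38). The median interval over all genes reached 0.24 to either side, about as for Hif1a, and that of Ankrd37 was wider. Within runs, however, Hif1a was at -0.14 in run 2 and 0.24 in run 1. In run 1 its 10 µM arrays lay above its DMSO arrays, as for 25.5% of all genes. Its change between runs was -0.38 (SE 0.20, adjusted p = 0.533 by limma). Over both runs Hif1a averaged 8.59 ± 0.19 in DMSO (SD, n = 5), 8.61 ± 0.19 at 10 µM (n = 6) and 8.56 ± 0.14 at 100 µM (n = 4). Bnip3 averaged 9.77 ± 0.25 in DMSO, 9.67 ± 0.29 at 10 µM and 9.66 ± 0.24 at 100 µM. Pdk1 averaged 8.30 ± 0.25, 8.30 ± 0.47 and 8.24 ± 0.24 in the same order, and Ankrd37 6.15 ± 0.47, 6.10 ± 0.33 and 5.96 ± 0.45. The dose groups overlapped for each of the 8 members over both runs, in both flutamide comparisons and between the doses, while over all genes they did not overlap for 0.634% at 10 µM, 2.06% at 100 µM and 0.827% between the doses. Over all genes, the change at 10 µM differed between runs for 6 genes (0.0414%) and the change at 100 µM for 1 gene (0.00689%), none of them a member.

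The third comparison asks what 100 µM flutamide did. Again 0 genes passed (0%; 993 at an unadjusted p under 0.05, 6.85%). Egln3 had 6.32 and 6.50 in the 100 µM arrays of run 2, against 7.11, 7.21 and 7.49 in DMSO. In run 1 it had 5.72 in both 100 µM arrays, against 5.92 and 6.28 in DMSO. Each 100 µM array was below each DMSO array of its own run, while over both runs the groups overlapped. With so few arrays such separation within a run was common, at 29.3% of all genes in run 2 and 30.6% in run 1. The difference was -0.66 (SE 0.16, adjusted p = 0.479), -0.86 within run 2 and -0.38 within run 1. By p it ranked 26 among all genes, and leaving out arrays 23, 15 and 24 it was -0.68 (adjusted p = 0.382).

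The other hydroxylase, Egln1, was at -0.03 at 100 µM (95% interval -0.29 to 0.24). Epas1 was at 0.16 (-0.07 to 0.39), with 8.31 and 8.48 against 8.08, 8.09 and 8.16 in run 2, and 8.70 and 8.86 against 8.64 and 8.86 in run 1. Its 100 µM arrays were above DMSO in run 2 and overlapped with DMSO in run 1. Hif1a was at -0.03 (-0.29 to 0.24), and its values within runs pointed in opposite directions, -0.23 in run 2 and 0.23 in run 1. The change between runs was -0.46 for Hif1a (SE 0.22, adjusted p = 0.849). Vegfa was at 0.16 (-0.19 to 0.51), Pdk1 at -0.10 (-0.52 to 0.31), Bnip3 at -0.11 (-0.47 to 0.25) and Ankrd37 at -0.22 (-0.74 to 0.29).

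Between the doses, 100 µM against 10 µM, no member or other gene passed (0%; 723 genes at an unadjusted p under 0.05, 4.98%). The member differences ran from -0.16 for Vegfa to 0.17 for Egln1. Egln3 was at -0.12 (95% interval -0.45 to 0.20), an interval that includes 0. The 2 flutamide groups share the same DMSO arrays, so their differences from DMSO are not independent of each other.

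The wider HIF pathway was described with 7 lists, which hold 73 genes besides the members, 70 of them measured. None passed in any dose comparison or between the runs. At 10 µM 34 of the 70 were higher and 36 lower (51.4% lower, against 50.9% of all genes), with a median of -0.003, as over all genes. At 100 µM 32 were higher and 38 lower (54.3% lower, against 44.3% of all genes), with a median of -0.01, against 0.02 over all genes. In run 2 against run 1, 30 were higher and 40 lower (57.1% lower, against 49.2% of all genes), with a median of -0.03.

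**Figure D3:**
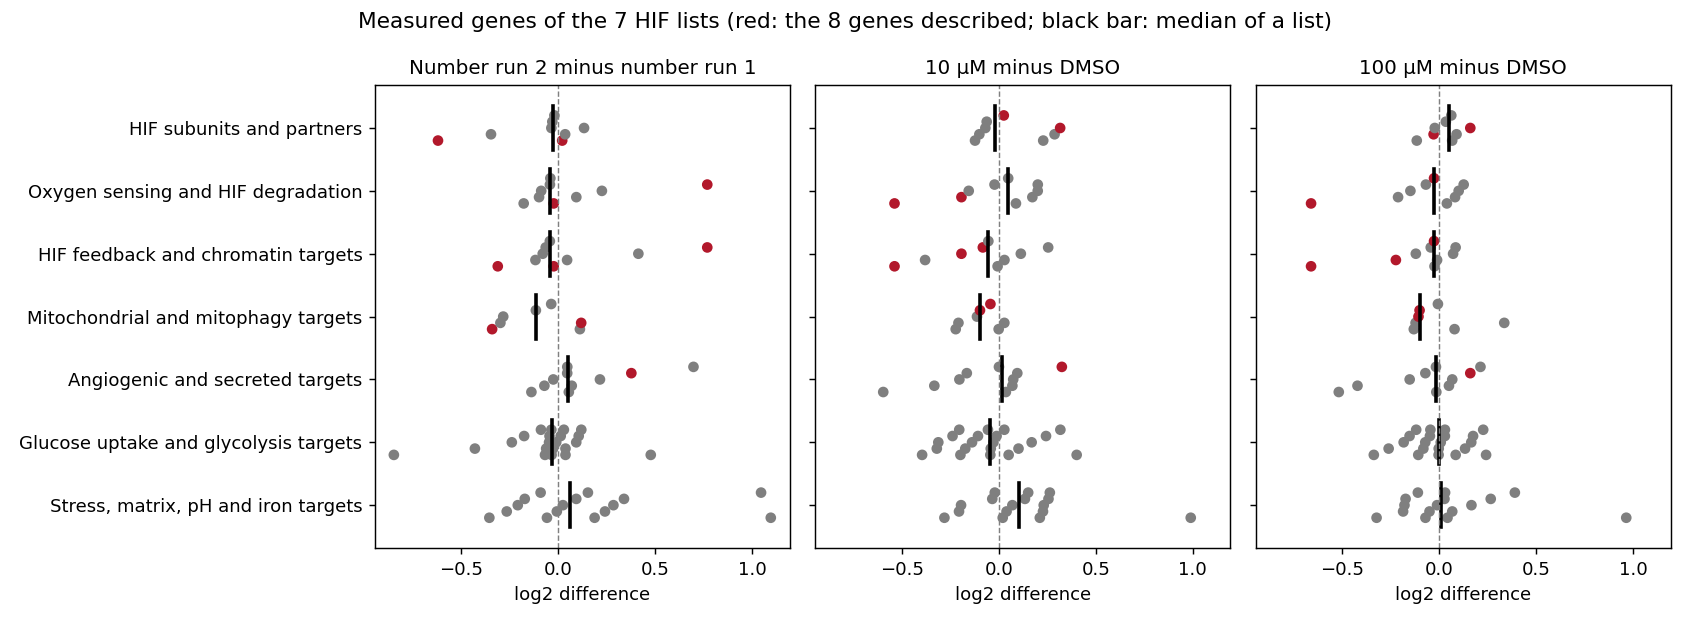
Log2 differences (x axis) of the measured genes of 7 HIF lists (rows), for run 2 minus run 1 and for each flutamide dose minus DMSO. Red points are the 8 genes described, grey points the other list genes, black bars list medians. List medians lie between -0.12 and 0.10 in all panels, and Egln3 is the outermost gene of the oxygen sensing list in each.

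Of the HIF subunits and partners, 4 of 8 measured genes were higher and 4 lower at 10 µM. Arnt, the common partner, was at 0.23 (SE 0.16), Hif3a, a further alpha subunit, at -0.10 (SE 0.08), and the acetyltransferase coactivator gene Ep300 had the list's lowest p, at 0.29 (SE 0.09, adjusted p = 0.431). At 100 µM Arnt was at 0.03, Hif3a at 0.09 and Ep300 at 0.07. In the oxygen sensing list of 9 measured genes, 5 were higher and 4 lower at 10 µM. Egln2, which encodes PHD1, was at -0.15 (SE 0.13), Hif1an, the asparaginyl hydroxylase FIH, at 0.20 (SE 0.22), and Vhl at 0.20 (SE 0.14). At 100 µM 4 were higher and 5 lower, with Egln2 at -0.07, Hif1an at -0.15 and Vhl at 0.10. Egln3 had the lowest p of this list at both doses and between the runs.

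Among secreted targets, Angptl4, a lipoprotein lipase inhibitor that HIFs and fatty acid receptors both regulate, had values on the same sides as Egln3. It was at -0.60 at 10 µM (SE 0.17, adjusted p = 0.399), -0.52 at 100 µM (SE 0.19, adjusted p = 0.682) and 0.70 in run 2 against run 1 (SE 0.15, adjusted p = 0.0564). Its run 2 values were 6.22, 6.27 and 6.34 at 10 µM and 6.11 and 6.18 at 100 µM, against 6.75, 7.04 and 7.36 in DMSO. Its run 1 values were 5.13, 5.83 and 5.87 at 10 µM and 5.90 in both 100 µM arrays, against 5.74 and 6.15 in DMSO. Flutamide and DMSO arrays were separated in run 2, as for 16.3% of all genes at 10 µM and 29.3% at 100 µM, and overlapped in run 1 at both doses. Adm, which encodes the vasodilator adrenomedullin, was at 0.07 and 0.21 at 10 and 100 µM, and Epo, the erythropoietin gene, at 0.04 and 0.07. Epo averaged only 4.16, among the 25% of genes with the lowest means (under 4.53).

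The glycolysis targets, which carry glucose use without oxygen, had 7 of 21 higher and 14 lower at 10 µM, and 9 higher and 12 lower at 100 µM. Slc2a1, the glucose transporter GLUT1, was at 0.32 (SE 0.28) at 10 µM, Pgk1 at -0.20 (SE 0.16) and Ldha, a lactate dehydrogenase subunit, at -0.20 (SE 0.09). Their 100 µM values were 0.13, -0.08 and -0.15. The 10 µM array 23, of quality weight 0.205, had the lowest Pgk1 (9.22), Ldha (12.08) and Eno1 (8.70) of all arrays. It also had the highest Slc2a1 (10.80), and its part in the counts and values at 10 µM was not tested. The lowest p of the list was that of Gys1, a glycogen synthase, at 10 µM (0.40, SE 0.16) and of the hexokinase gene Hk2 at 100 µM (0.17, SE 0.08). Hk2 averaged only 4.20, among the 25% of genes with the lowest means (under 4.53). Between the runs Aldoc, an aldolase, was at -0.85 (SE 0.22, adjusted p = 0.111). No enzyme of the list passed in these comparisons.

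In the mitochondrial list, 1 of 7 genes was higher and 6 lower at 10 µM, and 2 were higher and 5 lower at 100 µM. Bnip3l, the mitophagy receptor related to Bnip3, was at -0.21 (SE 0.11) and -0.13 (SE 0.12). The lowest Bnip3l of all arrays, 9.62, was in 10 µM array 23. The lowest p belonged to Fam162a at 10 µM (-0.22, SE 0.11) and to Cox4i2, a cytochrome oxidase subunit known to be induced by low oxygen, at 100 µM (0.34, SE 0.13, adjusted p = 0.698). Cox4i2 averaged only 4.52, among the 25% of genes with the lowest means (under 4.53). Of the feedback list, 3 of 9 were higher at 10 µM and 2 of 9 at 100 µM. Bhlhe40, a transcriptional repressor, was at -0.38 (SE 0.21) and -0.12 (SE 0.23).

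The stress, matrix, pH and iron targets had 11 of 16 higher at 10 µM and 8 of 16 at 100 µM. Ddit4, which restrains mTOR, was at 0.13 (SE 0.14) and 0.39 (SE 0.16, adjusted p = 0.698), the list's lowest p at 100 µM. Ero1a, an oxidase of protein folding, had it at 10 µM (0.26, SE 0.10, adjusted p = 0.542). Car9, a carbonic anhydrase, was at 0.21 and 0.27, Ndrg1 at -0.20 and 0.03, and P4ha1, a collagen prolyl hydroxylase, at -0.02 and -0.32. The farthest from 0 was Hamp, which encodes the iron hormone hepcidin, at 0.99 (SE 0.44, adjusted p = 0.629) and 0.96 (SE 0.48, adjusted p = 0.755). Its run 1 values overlapped with DMSO at both doses, with 8.38 to 9.81 at 10 µM against 8.59 and 9.53 in DMSO. Its run 2 values were 10.21, 10.79 and 11.77 at 10 µM, against 8.04, 9.33 and 10.08 in DMSO. The highest of all arrays, 11.77, was 10 µM array 23, and its part in the 10 µM difference was not tested. The change of the 10 µM difference between runs was 1.77 (adjusted p = 0.484 by limma). Differences from DMSO in this list lay on both sides of 0, and 0 of 16 passed.

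Since the arrays fall into runs, their co-variation is given as deviations from the mean of each dose and run, over 15 arrays that share these means and the normalization. Among 28 pairs, r ran from -0.51 (Pdk1 and Bnip3) to 0.63 (Hif1a and Ankrd37), as a description. Egln3 and Epas1, which lay on opposite sides for run, were at -0.005 in these deviations.

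**Figure D4:**
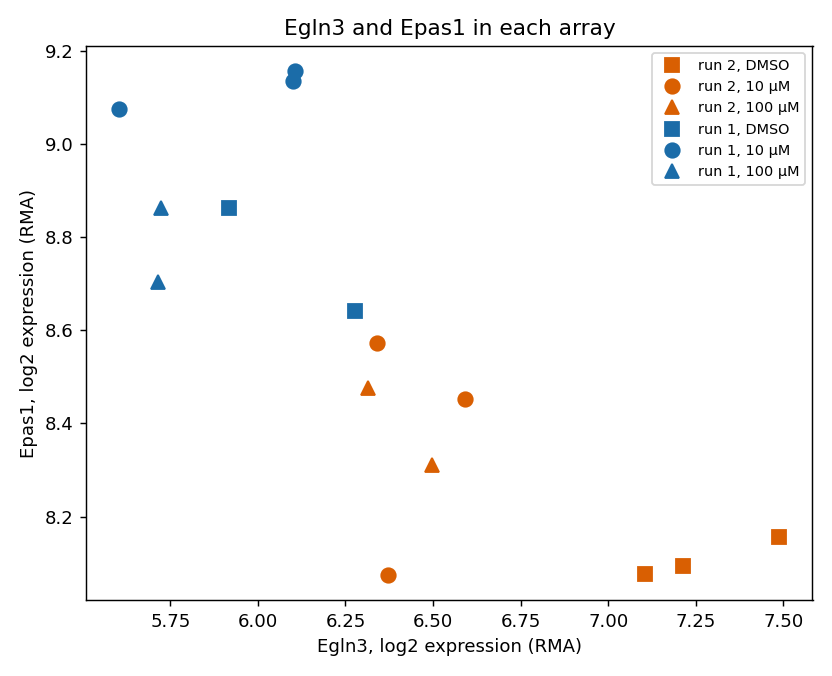
Log2 expression of Egln3 (x axis) and Epas1 (y axis) in each array, in orange for number run 2 and blue for number run 1, with squares for DMSO, circles for 10 µM and triangles for 100 µM. The runs form separate clouds, and the 3 DMSO arrays of run 2 have the highest Egln3, from 7.11 to 7.49, with Epas1 between 8.08 and 8.16.

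The genes whose log2 values were most like those of a member were taken as the 3 with the highest Pearson r over the 15 arrays, again as a description, with runs and doses included. For Egln3 these were Nipal1 (0.90), Sfxn2 (0.89) and Casp12 (0.88). For Epas1 they were Rab5b (0.91), RT1-N2 (0.89) and Herpud2 (0.89). Those most like Ankrd37 were Kcnv2 (0.91), Wnt7b (0.83) and Tas2r124 (0.81), and those most like Bnip3 were Glud1 (0.87), Cldn1 (0.87) and Mertk (0.86). Pdk1 had Ube2e3 (0.88), Mtmr2 (0.88) and Ifi27 (0.87), and Hif1a had Samd8 (0.86), Strap (0.84) and Etf1 (0.82). Vegfa had Wfikkn1 (0.84), Wnt16 (0.82) and Prr3 (0.82), and Egln1 had Ankle2 (0.83), Prl6a1 (0.82) and Slc29a2 (0.82). None of these genes is on the HIF lists.

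Egln1 and Bnip3 each had a second probe set. For Bnip3 it averaged 9.70, as did the one used, and gave -0.09 at 10 µM and -0.08 at 100 µM. The second Egln1 probe set averaged 5.08 and was at -0.42 at 10 µM (adjusted p = 0.749) and -0.40 at 100 µM (adjusted p = 0.807), against -0.19 and -0.03 on the one used. The change of its 10 µM difference between runs was -1.29 (adjusted p = 0.307), against -0.49 on the one used. Its lowest value, 3.88, was in 10 µM array 23. RefSeq lists pseudogenes of both genes, so signal from near-identical copies could be included.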

How the data were processed

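Expression was measured on 15 arrays. The authors deposited log2 values, 1 per probe set and array; the submitters' processing notes name RMA (background correction, quantile normalization and probe summary) and Partek, with versions and settings not given in the sources used here. Array medians were 5.38 to 5.51 and no further normalization was applied. Arrays have no read depth, so their number limits the precision, and no detection value was used.

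Of 29214 probe sets, 15310 held 1 gene symbol, 323 several and the rest none; symbols were updated by gene identifier through RefSeq GRCr8 (15279 matched). The probe set of highest mean per gene left 14506 genes. Number of columns of other samples: 0.

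Groups were compared with limma 3.58.1 (lmFit, eBayes) in R 4.3.3, with dose group and number run as terms and 11 residual degrees of freedom, and a separate fit of dose by run. Adjusted p-values are Benjamini-Hochberg over all 14506 genes, called under 0.05. On data simulated with independent noise, the fits returned known changes close to their size on average. How often changes of the size seen for Egln3 would be called is not given by this check. Alternatives were no run term, each run alone, renewed quantile normalization, array weights, a dim filter, a trended robust prior, averaged probe sets and each array left out. Those without the 3 arrays of lowest weight and with the other probe set were added after seeing the data.

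Named genes are the 8 members, a fixed set of HIF genes, the gene of lowest p per list and dose, and likeness genes; Angptl4 run values, Aldoc between runs, Hamp, Hbb and Cd68 were singled out after their values were seen. Members and lists were chosen with earlier results of these data known.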

Additional observations from a re-analysis of the deposited data

Results flagged for a closer look

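In 24 groups of 4 to 6 arrays (8 genes, 3 doses), 2 held an array far from the others by Dixon's criterion, where chance alone flags about 1 in 20. Egln1 was at 6.18 in DMSO array 11, below the other 4 DMSO arrays. Pdk1 was at 7.88 in 100 µM array 27, below the other 3 arrays of its group.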

How the results depend on the processing

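Egln3 and Epas1 kept their direction and call between the runs under all 20 alternatives (0.67 to 0.83 and -0.66 to -0.56, adjusted p 0.00975 to 0.0349 and 0.00124 to 0.0213). Of 1056 member values under alternatives, 68 changed sign; none of these was called. The count of 79 genes between runs was 191 with array weights and 37 to 129 with 1 array left out: 37 without DMSO array 11, 129 without 10 µM array 23, 44 without DMSO array 10, 51 without DMSO array 20, 45, 40 and 48 without 10 µM arrays 12, 13 and 14, and 49 and 46 without 100 µM arrays 16 and 26. At 10 µM, where 0 genes passed, 1 did with array weights, 1 with renewed quantile normalization, 7 in run 2 alone and 0 to 1 with 1 array left out (DMSO 11 or DMSO 22). At 100 µM 1 did in run 2 alone. The change of the 10 µM difference between runs (6 genes) gave 17 with weights, 3 with quantile normalization, 2 with the dim filter, 2 with the trended prior, 3 without the 3 low-weight arrays, and 2 to 116 with 1 array left out (116 without 10 µM array 25). That at 100 µM (1 gene) gave 4, 2 and 5 with weights, quantile normalization and without the 3 arrays, and 0 to 22 with 1 left out (22 without 100 µM array 16). The cause was not tested.

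Sign changes were as follows. Leaving out arrays 23, 15 and 24, Pdk1 at 10 µM was 0.19, Vegfa and Bnip3 between doses 0.087 and 0.052, and Egln1 between runs 0.040. The change between runs was then 0.44 for Pdk1, -0.20 for Vegfa and 0.093 for Epas1 at 10 µM, and -0.091 for Vegfa at 100 µM. With weights, Pdk1 at 10 µM was 0.10 and Bnip3 between doses 0.079, and the change between runs was 0.22 for Pdk1 and -0.091 for Vegfa at 10 µM and -0.075 for Vegfa at 100 µM. With quantile normalization, Pdk1 at 10 µM was 0.0095, Hif1a and Egln1 at 100 µM 0.0043 and 0.049, Egln1 between runs 0.012, and the change between runs at 10 µM 0.14 for Pdk1 and 0.11 for Epas1. The second Bnip3 probe set gave 0.0021 between doses. In run 1 alone, Egln1, Bnip3 and Pdk1 at 10 µM were 0.083, 0.095 and 0.030, Egln1, Hif1a and Bnip3 at 100 µM 0.19, 0.23 and 0.13, and Bnip3 between doses 0.036. In run 2 alone, Ankrd37 and Hif1a at 10 µM were 0.15 and -0.14, and Epas1 and Pdk1 between doses 0.027 and 0.064.

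With 1 array left out, ranges that crossed 0 at 10 µM were -0.036 to 0.088 for Hif1a and -0.17 to 0.11 for Pdk1. At 100 µM they were -0.15 to 0.033 for Egln1, -0.090 to 0.053 for Hif1a and -0.18 to 0.038 for Bnip3. Between doses they were -0.11 to 0.023 for Hif1a, -0.20 to 0.056 for Pdk1, -0.092 to 0.13 for Bnip3 and -0.32 to 0.053 for Ankrd37. Between runs they were -0.12 to 0.012 for Egln1 and -0.026 to 0.066 for Hif1a. For the change between runs they were -0.22 to 0.033 for Epas1 and -0.43 to 0.15 for Pdk1 at 10 µM, and -0.11 to 0.26 for Vegfa, -0.15 to 0.35 for Pdk1 and -0.19 to 0.84 for Ankrd37 at 100 µM. No paired analysis was possible because no title number is shared between groups. No detection measure was used, so levels near the array's floor cannot be told from none.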
